A study of Mus musculus with 15 samples.

Results

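Lamp5, Chchd10, Pde1b, Slc2a3 and Ube2v1 are 5 of the 36265 genes with values in this study of the mouse substantia nigra, a midbrain nucleus that loses its dopamine neurons in Parkinson disease. They were picked from these data because each was lower on the injected side of mice given a miR-181 virus and not on that of mice given a GFP virus, and because the 5 were taken to lack a surplus of miR-181 seed matches. Their side differences in both sets of mice, and the contrast of these differences, therefore only describe how the genes were selected and carry no test here. RNA was measured in 15 libraries from 8 naive C57Bl/6J mice, 3 weeks after a stereotaxic injection on 1 side, with the opposite side left uninjected as a control. The miR-181 set was 3 mice that received AAV-hSYN1-miR-181 at 1.65e10 vector genomes, which gave 3 injected and 3 uninjected libraries. The GFP set received AAV-hSYN1-GFP, a virus with a green fluorescent protein, at 1e10 vector genomes, and gave 4 injected and 5 uninjected libraries, mouse 5 being present with its uninjected side alone. The hSYN1 (human synapsin) promoter acts mainly in neurons, whereas the dissected tissue holds every cell type of the region, and the labels give no age for the mice. They do not say which member of the miR-181 family the virus carried.

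The polyA libraries of the 2 sets were prepared and sequenced separately, on a HiSeq for miR-181 and a NovaSeq for GFP. Vector, dose, instrument and library set thus change together and cannot be told apart in any comparison of levels between the sets. All levels below are TPM (an abundance scale corrected for transcript length and total) divided by a size factor per library. TPM keeps no record of depth, so the depth is unknown, and between 15022 and 15563 genes reached 1 in a library. Markers of dopamine neurons (10 of 10 present, summed level 1133 to 2894) were found in every library. Summed serotonin neuron markers were at 98.7 to 162 in miR-181 and 41.7 to 63.3 in GFP libraries. GFP mouse 1 carried pituitary markers, with sums of 50141 on its uninjected and 2453 on its injected side against 3.36 to 18.7 in all other libraries.

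MicroRNAs are short RNAs that guide Argonaute proteins to messenger RNAs, chiefly through pairing of the seed, bases 2 to 8 of the microRNA, with sites in 3' untranslated regions (3' UTRs). Paired messages are translated less and degraded faster, so targets of an added microRNA tend to lose message. The 5 genes act in different places in neurons. Lamp5 encodes a brain-enriched relative of the lysosomal membrane glycoproteins found on endosomes and presynaptic terminals. Chchd10 encodes a twin CX9C protein of the mitochondrial intermembrane space that pairs with Chchd2 and is mutated in forms of motor neuron disease. Pde1b encodes a cyclic nucleotide phosphodiesterase switched on by calcium and calmodulin. Slc2a3 encodes GLUT3, the main glucose transporter of neurons, and Ube2v1 a ubiquitin-conjugating enzyme variant that lacks the catalytic cysteine and works with Ube2n to build lysine-63-linked ubiquitin chains.

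The mature 5p strands of the miR-181 family are printed because every seed match counted below derives from them. They come from RefSeq (GRCm38.p6), with the seed in capitals. miR-181a and miR-181b are each encoded on both chromosome 1 and chromosome 2, and miR-181c and miR-181d on chromosome 8.
miR-181a: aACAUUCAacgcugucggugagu
miR-181b: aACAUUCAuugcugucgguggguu
miR-181c: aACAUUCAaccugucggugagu
miR-181d: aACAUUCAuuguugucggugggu
The 4 share 1 seed and differ downstream of it.

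The seed was searched on the sense strand of 1 annotated 3' UTR per gene, the longest. The 7-base matches were TGAATGT, which pairs with bases 2 to 8, and GAATGTA, which pairs with bases 2 to 7 and is followed by A. TGAATGTA, the 8-base match, holds both and was counted once. Of the 5 genes only Slc2a3 held a 7-base match, beside 23.8% of the 14283 tested genes with an annotated 3' UTR. Slc2a3 had 2 matches in a 3' UTR of 2122 bases, 1 of them of 8 bases, a kind found in 6.19% of genes. Lamp5 (726 bases), Chchd10 (153), Pde1b (1258) and Ube2v1 (1463) had 0, where the median gene has 1198 bases. Coding sequences were searched in the same way, the longest of each gene. None of those of the 5 held a 7-base match, against 16.4% of genes. The group was labelled as lacking a surplus of matches, so its count is a description. That label is about the 5 together, and Slc2a3 is the 1 gene among them with such matches.

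The matched sites are shown with the bases around them, the match in capitals, because they set Slc2a3 apart from the other four. They are written along the sense strand, in GRCm38.
Slc2a3, chr6:122728625-122728631, minus strand, 3' UTR bases 1300 to 1306: gagacagtgacTGAATGTgcagtgtggtc
Slc2a3, chr6:122727824-122727831, minus strand, 3' UTR bases 2100 to 2107: aataaaacttcTGAATGTAtgtgtcatgtc
Lamp5, chr2:136069735-136069740, plus strand, 3' UTR bases 544 to 549: gattgttttggGAATGTctcactgctac
The 8-base match of Slc2a3 ends 15 bases before the annotated 3' end and starts 5 bases after the only AATAAA, a polyadenylation signal, in that 3' UTR. The Lamp5 site is a 6-base match, GAATGT, which 36.7% of genes have. Pde1b had a 6-base match in its coding sequence. A match of these letters is a description of the sequence and no measure of binding.

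**Figure D1:**
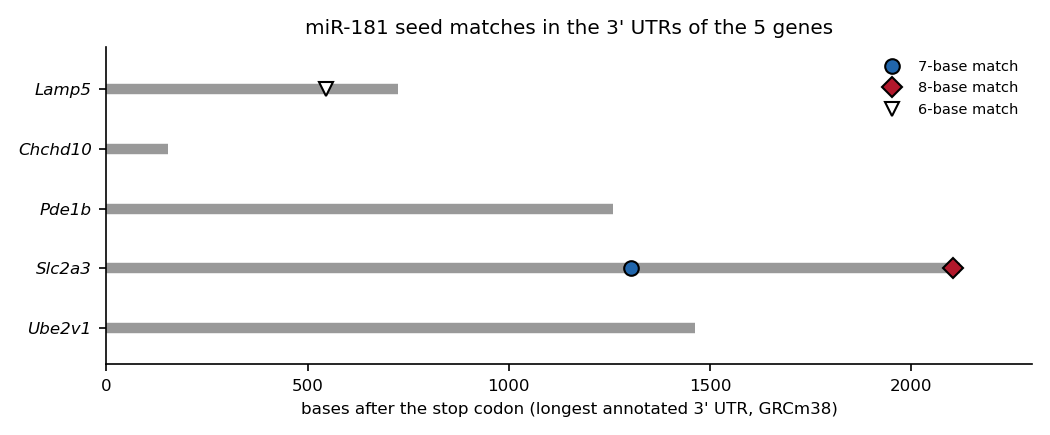
Longest annotated 3' UTR of each gene as a grey bar, with length in bases after the stop codon on the x axis, and miR-181 seed matches as symbols. Slc2a3 carries a 7-base and, at the end of its 2122 bases, an 8-base match, Lamp5 a 6-base match, and the other 3 genes none.

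Chchd10 (ENSMUSG00000049422, chr10:75933130-75937747, plus strand) is the most abundant of the 5. In the miR-181 mice its level was 368, 367 and 348 on the uninjected side of mice 1, 2 and 3, and 249, 181.01 and 197 on the injected side. The sides did not overlap, and the injected side held 67.6%, 49.3% and 56.5% of the level across the midline. In the GFP mice it was 456, 475, 447, 428 and 457 uninjected and 486, 502, 451 and 450.2 injected, with overlapping sides. The mean per-mouse change was -0.80 ± 0.23 on the log2 scale (SD, n = 3) with miR-181 and 0.06 ± 0.03 (SD, n = 4) with GFP. Log2 values here and below are of the level plus 0.5, except for summed markers and changes relative to a marker sum, where nothing was added.

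The 4 group means of Chchd10 ran from 472 ± 26.0 (SD, n = 4) on the GFP-injected side through 453 ± 17.0 (n = 5) on the GFP uninjected side to 361 ± 11.3 (n = 3) on the miR-181 uninjected side and 209 ± 35.5 (n = 3) on the miR-181-injected side. The 2 GFP groups overlapped, with means 19.6 apart, although the injected side was the higher one in each of the 4 GFP mice (in 3 of 4 after quantile normalization). It was higher in each GFP mouse for 11.2% of the 14824 genes tested in both sets. The uninjected sides of the 2 sets did not overlap either, nor did those of Slc2a3 and Ube2v1. The share of all genes with such a gap between sets was not counted. The tables of the 2 sets were normalized separately, and this distance between sets was not tested.

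Lamp5 (ENSMUSG00000027270, chr2:136052239-136069917, plus strand) varied most between mice. Its level in miR-181 mice 1, 2 and 3 was 23.3, 19.0 and 64.3 uninjected and 13.5, 10.3 and 34.5 injected. Mouse 3 was high on both sides, its injected side above the uninjected side of the other 2 mice, so the sides overlapped. Within each mouse the injected side nevertheless held a like share, 57.9%, 54.2% and 53.7%, and the mean log2 change was -0.84 ± 0.06 (SD, n = 3), the smallest spread of the 5 genes. An unpaired comparison of the sides gave the same mean with a standard error of 0.56, and moved to -0.31 without the uninjected library of mouse 3 and to -1.34 without its injected library. It moved to -0.49 without the injected library of mouse 2.

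GFP mice had 15.4, 14.2, 15.2, 15.3 and 19.7 of Lamp5 on the uninjected and 15.9, 13.1, 14.4 and 16.2 on the injected side. The sides overlapped, and the mean change was -0.02 ± 0.10 (SD, n = 4). The highest value was that of mouse 5, which has no injected library. Group means ran from 35.5 ± 25.0 (SD, n = 3) uninjected and 19.4 ± 13.1 (n = 3) injected in the miR-181 set to 16.0 ± 2.13 (n = 5) and 14.9 ± 1.47 (n = 4) in the GFP set. These SDs are of the spread between mice, which mouse 3 widens in the miR-181 set. They leave out the pairing of the sides, which the per-mouse changes keep.

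Pde1b (ENSMUSG00000022489, chr15:103503034-103530052, plus strand) stood at 108, 105 and 103 on the uninjected and 77.8, 66.7 and 68.7 on the injected side of the miR-181 mice. The sides did not overlap and the injected side kept 72.0%, 63.5% and 66.5%, a mean log2 change of -0.57 ± 0.09 (SD, n = 3). The GFP mice had 88.9, 94.7, 100.3, 109 and 100.3 uninjected and 97.9, 100.2, 98.9 and 103 injected. These overlapped, with 2 mice higher and 2 lower on the injected side and a mean change of 0.03 ± 0.10 (SD, n = 4). The uninjected miR-181 libraries (105 ± 2.49, SD, n = 3) lay within the range of the uninjected GFP libraries (98.7 ± 7.60, n = 5), and the GFP-injected mean was 100.0 ± 2.21 (n = 4). Only the miR-181-injected group (71.1 ± 5.94, n = 3) lay outside the others.

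Slc2a3 (ENSMUSG00000003153, chr6:122727809-122801640, minus strand), the gene with the seed matches shown above, was at 84.1, 81.0 and 85.0 uninjected and 64.7, 54.2 and 63.1 injected in the miR-181 mice. The injected side held 77.0%, 66.9% and 74.2% without overlap. In GFP mice the levels were 69.7, 76.5, 70.8, 74.7 and 80.9 uninjected and 71.9, 77.8, 73.5 and 77.0 injected. The sides overlapped as groups, yet within each of the 4 mice the injected side was slightly higher, by 0.02 to 0.05 on the log2 scale, as it was in each GFP mouse for 11.2% of the 14824 genes tested in both sets. The smallest of these 4 changes was 0.00198 after median centring and 0.000685 after quantile normalization. The mean change was -0.46 ± 0.10 (SD, n = 3) with miR-181 and 0.04 ± 0.01 (SD, n = 4) with GFP. Group means fell in the order miR-181 uninjected (83.4 ± 2.08, n = 3), GFP injected (75.0 ± 2.82, n = 4), GFP uninjected (74.5 ± 4.50, n = 5) and miR-181 injected (60.7 ± 5.65, n = 3). The means of the 2 GFP groups were closer than either SD.

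Ube2v1 (ENSMUSG00000078923, chr2:167607638-167632095, minus strand) had the smallest log2 change of the 5 with miR-181, though not the smallest difference in level. Its level was 191, 197 and 194 uninjected and 153, 139.8 and 149 injected in the miR-181 mice, which left 80.2%, 71.0% and 77.0% without overlap. GFP mice had 228, 219, 216, 209.5 and 219.6 uninjected and 225, 228, 233 and 233 injected, with overlapping sides. The mean change was -0.40 ± 0.09 (SD, n = 3) with miR-181 and 0.07 ± 0.07 (SD, n = 4) with GFP. Both GFP groups (229 ± 3.98 injected, n = 4, and 218 ± 6.56 uninjected, n = 5) lay above the miR-181 uninjected libraries (194 ± 3.05, n = 3), which lay above the miR-181-injected ones (147 ± 6.89, n = 3). How many of all genes had such a gap between the sets was not counted.

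Ube2v1 shares exons with the read-through gene Gm20431, which runs on from its neighbour Tmem189, so the split of reads between them is uncertain. Gm20431 was at 15.6 to 22.3 uninjected and 16.2 to 19.0 injected in the miR-181 mice, with overlapping sides. Tmem189 was at 68.9 to 72.5 and 72.9 to 74.4, slightly higher on the injected side. Their part in the Ube2v1 values was not tested.

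**Figure D2:**
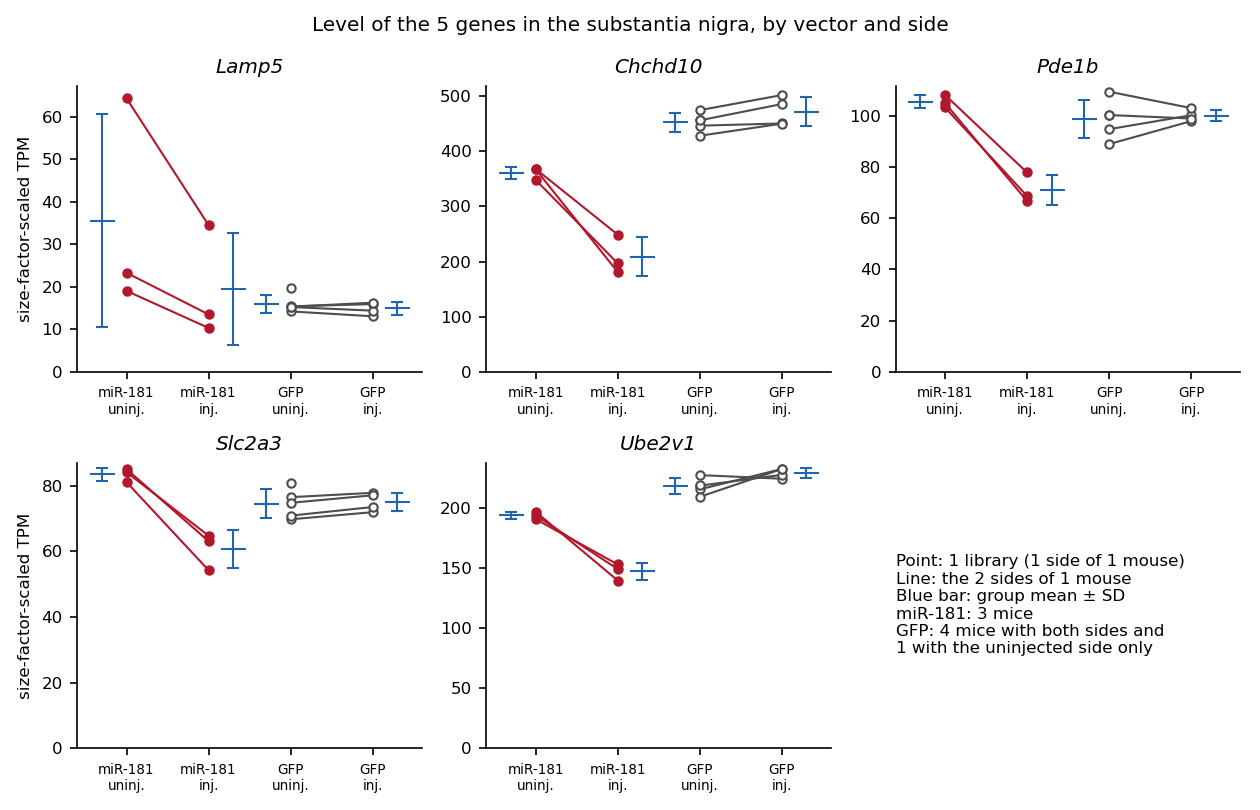
Level of the 5 genes (y axis, size-factor-scaled TPM from 0) in each library, by vector and side on the x axis, with lines joining the 2 sides of a mouse and blue bars for the group mean ± SD. Every miR-181 line (red) slopes down to the injected side, while the GFP lines (grey) are near level, and Lamp5 of miR-181 mouse 3 is high on both sides.

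Set side by side, the per-mouse changes showed the pattern by which the genes were chosen. In each of the 3 miR-181 mice all 5 genes were lower on the injected side, as were 25.1% of the 14824 genes tested in both sets. Moreover 4 of the 5 genes had every injected library below every uninjected one, a separation that 14.5% of the 15453 genes tested showed. For all 5 every miR-181 mouse lay below every GFP mouse, as it did for 7.94% of the 14824 genes tested in both sets. The gap between the nearest mice was 0.65 for Lamp5, 0.58 for Chchd10, 0.40 for Slc2a3, 0.39 for Pde1b and 0.30 for Ube2v1 on the log2 scale. The mean difference between vectors was -0.82, -0.87, -0.50, -0.60 and -0.47 in that order. These are not the lowest in the data: by size alone the genes ranked 148, 128, 476, 317 and 562 from the lowest. All 5 were tested in both sets, since none is near the minimum mean of 1.

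**Figure D3:**
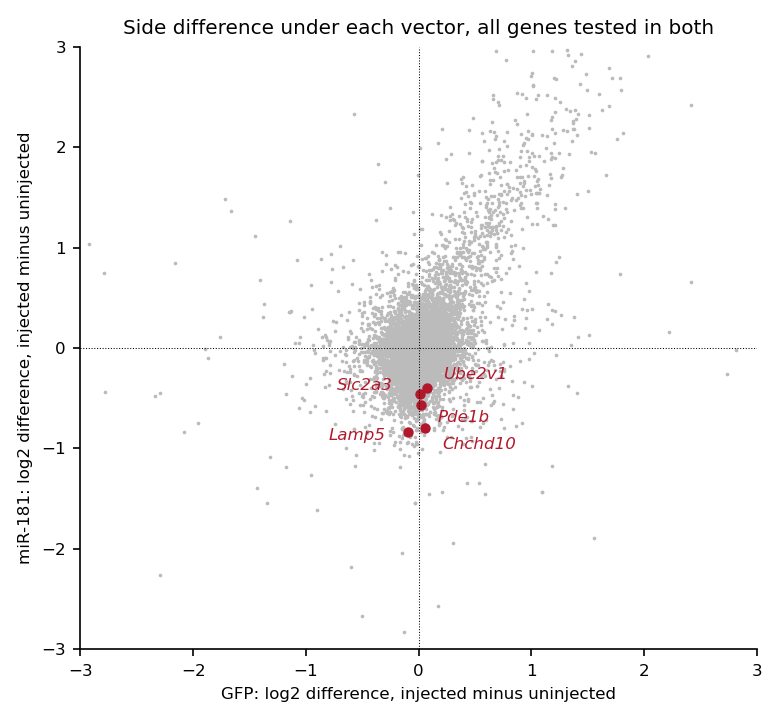
Log2 difference between injected and uninjected sides in GFP mice (x axis) and miR-181 mice (y axis), 1 grey point for each of 14824 genes tested in both, with the 5 genes in red and 112 genes beyond the axes not shown. The 5 lie between -0.40 and -0.84 with miR-181 and between -0.09 and 0.07 with GFP.

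The values without each of the 2 animals that stood apart are given for their size, since the direction is fixed by how the genes were chosen. Without GFP mouse 1, the one with pituitary markers, the mean differences were -0.80 for Lamp5, -0.86 for Chchd10, -0.56 for Pde1b, -0.50 for Slc2a3 and -0.50 for Ube2v1. Without miR-181 mouse 2 they were -0.81, -0.76, -0.56, -0.44 and -0.42. Chchd10, Pde1b, Slc2a3 and Ube2v1 had their largest change in mouse 2, and Lamp5 in mouse 3.

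Mouse 2 also differed most between its sides in markers of other cells. The summed level of 11 microglia and macrophage markers went from 532 to 2054 in mouse 2, from 551 to 1183 in mouse 1 and from 531 to 1468 in mouse 3. In the GFP set it was 407 to 554 uninjected and 775 to 1011 injected. Summed B and plasma cell markers (7 genes) stood at 50.7 to 91.2 uninjected and 788 to 4570 injected in the miR-181 mice, and at 3.01 to 25.5 and 63.8 to 1403 in the GFP mice. Astrocyte markers (8 genes) stood at 1530 to 1671 uninjected and 1915 to 2270 injected with miR-181, and at 1207 to 1379 and 1381 to 1591 with GFP. The part of these cells in the changes of the 5 genes was not tested.

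The summed pan-neuronal markers were lower on the injected side of each miR-181 mouse, but not every neuronal list was. The sum of 12 pan-neuronal markers was 6974, 7095 and 7152 uninjected and 6741, 5925 and 6490 injected in miR-181 mice 1, 2 and 3, a log2 change of -0.05, -0.26 and -0.14. In GFP mice it was 6932 to 7308 and 6879 to 7165, with changes between -0.05 and 0.02. In bulk tissue, fewer cells of a type and less RNA of a gene per cell cannot be told apart. Dopamine neuron markers changed by 0.03, -0.80 and 0.04 in miR-181 mice 1, 2 and 3, so that of the 3 only mouse 2 had a lower sum on the injected side. GABA neuron markers changed by -0.11, -0.23 and -0.21 in these mice, and by between -0.03 and 0.06 in the GFP mice. Cortical and hippocampal neuron markers changed by -0.21, 0.21 and 0.16 in miR-181 mice 1, 2 and 3, and serotonin neuron markers by -0.13, 0.00 and -0.05. Striatal projection neuron markers, of cells in which Pde1b is abundant, changed by -0.07, -0.14 and -0.06. In the GFP mice dopamine neuron markers changed by between -0.06 and 0.38, and cortical and hippocampal ones by between -0.46 and 0.04. Serotonin neuron markers changed there by between -0.01 and 0.49, and striatal ones by between 0.04 and 0.10.

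The same changes can be expressed relative to the neuronal sum of the mouse, here without the added 0.5. This is again a description of the values the genes were chosen on. The change relative to that sum averaged -0.71 ± 0.07 for Lamp5, -0.65 ± 0.13 for Chchd10, -0.42 ± 0.03 for Pde1b, -0.31 ± 0.02 for Slc2a3 and -0.25 ± 0.02 for Ube2v1 (SD, n = 3 each). Among the miR-181 mice the SD was smaller on this scale for 4 of the genes, and slightly larger for Lamp5. In GFP mice the same measure averaged between 0.00 and 0.09, and its SD was larger for 4 genes (0.01 against 0.03 for Slc2a3 and 0.07 against 0.10 for Ube2v1) and smaller for Pde1b (0.10 against 0.08).

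**Figure D4:**
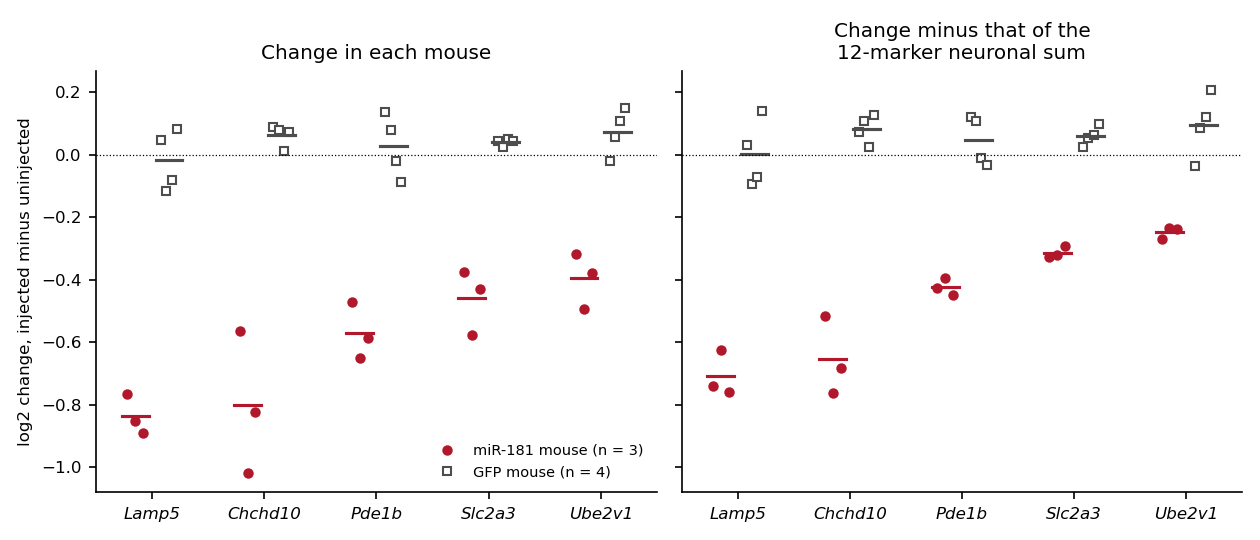
Log2 change of each gene from the uninjected to the injected side (y axis), 1 point per mouse and a bar at the mean, for 3 miR-181 mice (red circles) and 4 GFP mice (grey squares), as measured (left) and minus the change of the 12-marker neuronal sum of that mouse (right). The right panel is without the 0.5 added to levels on the left. Points of the 2 vectors do not overlap for any gene on either scale, and the miR-181 points of Pde1b, Slc2a3 and Ube2v1 lie closer together on the right. As measured, every miR-181 mouse lay below every GFP mouse for 7.94% of 14824 genes. That share was not counted on the scale of the right panel.

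Likeness within groups was not the contrast the genes were chosen on, although their spread within groups may have entered that choice. After the mean of each group was removed, correlations over the 15 libraries between pairs of the 5 ranged from -0.18 (Lamp5 and Chchd10) to 0.54 (Chchd10 and Ube2v1). These libraries fall in 4 groups normalized in 2 tables, and the values are a description. Without its 2 farthest libraries, injected miR-181 mice 1 and 2, the correlation of Chchd10 with Ube2v1 was -0.01. Without the 2 libraries farthest for Pde1b, uninjected GFP mice 4 and 1, its correlation went from 0.34 to 0.71 with Chchd10 and from -0.11 to 0.62 with Ube2v1. These 3 correlations thus moved with the libraries included.

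Lamp5 was most like Meis2, a homeobox transcription factor (r = 0.96), and Rbp4, the retinol-binding protein (r = 0.93), among 14823 genes over 15 libraries. Meis2 was at 27.5, 21.3 and 59.7 uninjected and 20.6, 19.1 and 46.0 injected in miR-181 mice 1, 2 and 3, and at 16.4 to 22.4 in every GFP library. Rbp4 was at 7.50, 8.45 and 23.8 and at 5.70, 4.79 and 15.1. Mouse 3 was high on both sides for all 3 genes. Without its 2 libraries r was 0.86 with Meis2 and 0.77 with Rbp4. Summed cortical and hippocampal neuron markers of mouse 3, 205 uninjected and 228 injected, were the lowest of the miR-181 set, and its serotonin sum was the highest.

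**Figure D5:**
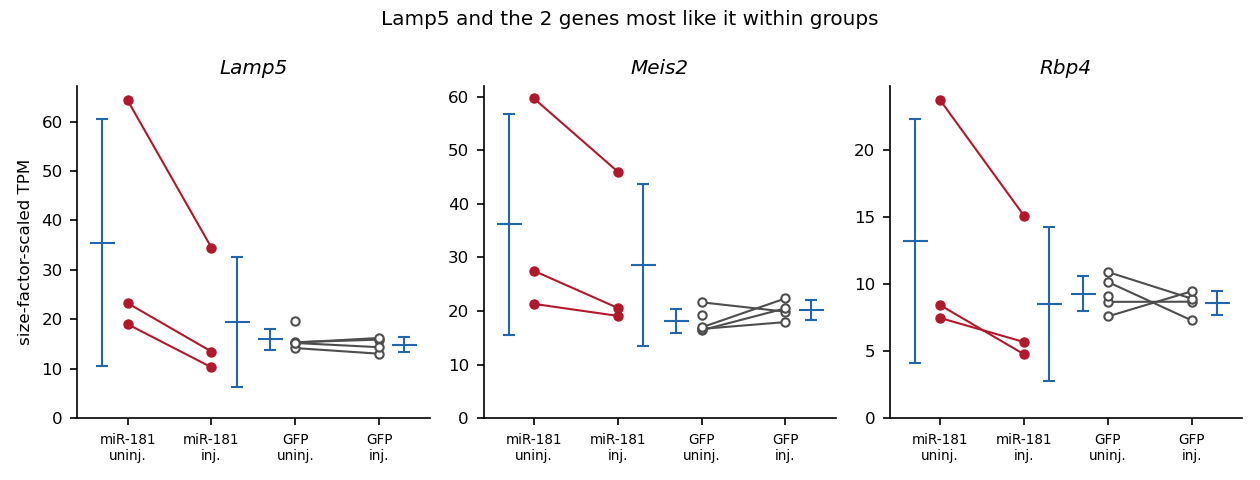
Level of Lamp5, Meis2 and Rbp4 (y axis, size-factor-scaled TPM) by vector and side, with lines joining the 2 sides of a mouse and blue bars for the mean ± SD. One miR-181 mouse, mouse 3, lies far above the rest on both sides in all 3 genes.

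The nearest companions of the other four were different for each. Chchd10 went with Fndc5, the precursor of irisin (r = 0.93, and 0.75 without its 2 farthest libraries), and Cyb5b, a cytochrome b5 of the outer mitochondrial membrane (0.91 and 0.72). Pde1b went with Adcy1, a calmodulin-stimulated adenylyl cyclase (0.91 and 0.83), and Cyp46a1, the cholesterol 24-hydroxylase of neurons (0.91 and 0.89).

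Slc2a3 went with Atp6v1a, the catalytic subunit of the vacuolar proton pump (0.91 and 0.87), and with Kcnj10, a glial potassium channel (0.89 and 0.81). Ube2v1 went with Gfpt1, the first enzyme of hexosamine synthesis (0.91 and 0.93), and Timm17a, a subunit of the mitochondrial inner-membrane translocase (0.91 and 0.84). No companion was shared by 2 of the genes, but only the best 2 of 14823 genes were kept for each. These r are the highest among many genes over few libraries, with both sides of a mouse included, and were not tested.

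The closest relatives and partners of the 5 genes were measured in the same libraries. Chchd2, the partner of Chchd10, was at 434 ± 13.4 uninjected and 418 ± 21.3 injected in the miR-181 mice (SD, n = 3 each), a log2 difference of -0.05 (limma adjusted p = 0.600). Slc2a1, the glucose transporter of blood vessels and glia, was at 109 ± 6.43 and 109 ± 2.21, a log2 difference of 0.00 (adjusted p = 0.978). Of the other calmodulin-dependent phosphodiesterases, Pde1a differed by -0.05 (adjusted p = 0.902) and Pde1c by -0.17 (adjusted p = 0.546).

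Ube2n, the catalytic partner of Ube2v1, was at 155 to 186 uninjected and 122 to 152 injected with miR-181 (n = 3 each, without overlap), a log2 difference of -0.31 that did not pass (limma adjusted p = 0.123). Ube2v2, which can take the place of Ube2v1, differed by -0.10 (adjusted p = 0.629). Without the injected library of miR-181 mouse 1, Ube2n passed (adjusted p = 0.0373), as did Lamp1 (0.0387). Lamp1, a ubiquitous relative of Lamp5, differed by 0.17 (adjusted p = 0.0857), and Lamp2 rose from 89.4 ± 3.29 to 116 ± 10.7, by 0.37 (adjusted p = 0.0372). The Lamp2 call was lost without any 1 of 5 of the 6 libraries, with an adjusted p of up to 0.144. None of these genes passed in the GFP mice, where the adjusted p ran from 0.421 for Lamp1 upward.

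The wider pathways of the 5 genes were read as gene lists, whose median difference is set beside 0.00 for all 15453 genes tested. Over all genes 4.39% were called higher and 1.49% lower with miR-181 (678 and 230 genes), or 570 and 148 with mouse as a block. The calls were 74.7% higher ones, or 57.5% after centring each library on its median, and between 4 and 714 genes were called lower when 1 library was left out. For Chchd10 the list held twin CX9C proteins, the MICOS complex that shapes mitochondrial cristae, and other mitochondrial membrane proteins. Of its 21 tested genes 0 passed in either direction (limma, 4 at an unadjusted p under 0.05, as were 23.5% of all genes), with a median of -0.03. Their smallest p-values belonged to Chchd7, at -0.26 (limma adjusted p = 0.0514), and Opa1, a fusion GTPase of the inner membrane, at -0.23 (adjusted p = 0.118). Chchd10 itself was at -0.80.

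Of 27 glucose and lactate carriers and glycolytic enzymes, 1 was called higher and 2 lower, with a median of -0.04. Hk2, the hexokinase induced in activated cells, rose from 2.19 ± 0.481 to 5.76 ± 1.20 (SD, n = 3 each), a log2 difference of 1.22 (limma adjusted p = 0.0212). Hk1, the main brain hexokinase, fell from 194 ± 4.28 to 159 ± 11.8, by 0.29 on the log2 scale (adjusted p = 0.0417). Pkm, pyruvate kinase, named after its value was seen, was the other lower call, at 1603 ± 16.1 and 1264 ± 126, a log2 difference of -0.35 (adjusted p = 0.0471, or 0.0611 with mouse as a block). Of the 6 fits that left out a library, Hk2 passed in 1 and Hk1 and Pkm in 2, with adjusted p of up to 0.0873, 0.145 and 0.169.

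Of 20 cyclic nucleotide phosphodiesterases and calmodulin genes 1 was called higher and 0 lower, with a median of -0.07. Pde3b, a phosphodiesterase inhibited by cyclic GMP, rose from 5.25 ± 0.149 to 7.99 ± 0.502 (SD, n = 3 each), a log2 difference of 0.56 (limma adjusted p = 0.0235, or 0.0516 with mouse as a block). It passed in 1 of 6 fits that left out a library, with an adjusted p of up to 0.110. Calm3, a calmodulin gene, differed by -0.18 (adjusted p = 0.0593).

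Of 21 genes that write, read or remove lysine-63-linked ubiquitin chains 1 was called higher and 0 lower, with a median of -0.01. Trim25, an interferon-induced ubiquitin ligase, rose from 4.79 ± 0.106 to 15.3 ± 6.02 (SD, n = 3 each), a log2 difference of 1.49 (limma adjusted p = 0.0346), and passed in 1 of 6 fits that left out a library, with an adjusted p of up to 0.135. Tab2, which binds these chains, differed by 0.24 (adjusted p = 0.0608).

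Among 13 lysosomal membrane proteins related to Lamp5 by family or place, 4 were called higher and 0 lower, with a median of 0.17. Cd68, the lysosomal glycoprotein of macrophages, rose from 13.4 ± 1.66 to 40.2 ± 7.04 (SD, n = 3 each), a log2 difference of 1.55 (limma adjusted p = 0.00348), and passed in all 6 fits that left out a library. Laptm5, a lysosomal protein of blood cells, rose from 42.4 ± 3.11 to 124 ± 39.0, by 1.49 (adjusted p = 0.0133), and passed in 2 of these 6, with an adjusted p of up to 0.0763. The other calls were Lamp2 and, named after its value was seen, Cd63, a tetraspanin of late endosomes (0.50, adjusted p = 0.0147), which passed in 3 of these 6 (adjusted p of up to 0.0779). The microglia sum, 531 to 551 uninjected and 1183 to 2054 injected, moved with this list, but Cd68 is in both. The part of these cells was not tested.

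In the GFP mice, where 1.34% of 15274 genes were called higher and 0.0131% lower (204 and 2 genes, or 133 and 2 with the block), the lists held 2 calls. These were Cd68, from 10.7 ± 2.35 (SD, n = 5) to 22.8 ± 3.79 (n = 4), by 1.07 (limma adjusted p = 0.0118, or 0.0662 with the block), and Laptm5, from 35.4 ± 4.25 to 65.8 ± 9.27, by 0.88 (adjusted p = 0.00406). The block also left out GFP mouse 5, which has no injected library. In the contrast of per-mouse changes between the vectors 0 of 102 genes in the 5 lists passed (limma, 17 at an unadjusted p under 0.05), where 0.027% of 14824 genes were called lower and 0.00675% higher (4 and 1 genes, and 2264 or 15.3% at an unadjusted p under 0.05). This contrast shares its miR-181 libraries with the first comparison. So none of the named list calls was shown to differ between miR-181 and GFP.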

How the data were processed

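The submitters' processing notes name kallisto 0.43.1, sleuth 0.30.0 and GRCm38. What was deposited for each library is a signal, taken here to be TPM over a size factor, since library sums ran from 970505 to 1040288. The authors made 1 table per vector, with separate normalization, and how transcripts were combined into genes is not given in the sources used here. A table held 56305 rows, 36660 with values, and 395 rows that repeated a gene's symbol and values were left out. Depth cannot be recovered from TPM, so no counting intervals are given.

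Log2(value + 0.5) was tested by limma 3.58.1 (R 4.3.3, intensity trend) where the mean reached 1, and p was adjusted by Benjamini-Hochberg at 0.05. Changes of low genes are understated on this scale. The fits were tested on simulated data. The contrast between vectors used per-mouse changes of 3 and 4 mice, without GFP mouse 5. Both sides of a mouse come from 1 animal, so mouse numbers pair libraries. Deviations from group means correlated between sides at 0.183, 0.140 and 0.257 with miR-181 and 0.192, 0.0947, 0.0177 and 0.122 with GFP.

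The 5 genes and the gene lists were chosen with earlier results of these data known. Named beside the 5 were their paralogs and partners, the 2 smallest p-values per list, and the 2 genes best correlated with each (Gm and Rik models left out). Seed matches were counted in GENCODE M21 sequences with Python 3.11.15. Alternatives were other pseudocounts, filters and scalings, no trend, mouse as a block and leaving out each library.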

Additional observations from a re-analysis of the deposited data

Results flagged for a closer look

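Lamp5 in the uninjected library of GFP mouse 5 was 19.7, apart from the 14.2 to 15.4 of the other 4 uninjected GFP libraries. This mouse has no injected library, so the value enters no per-mouse change. Slc2a1 of GFP mouse 4 stood apart on both sides, at 131 uninjected against 103 to 108 and at 135 injected against 109 to 111. Ube2n in the injected library of GFP mouse 2 was 122 against 164 to 170.4 in the other 3, and the uninjected library of GFP mouse 1, the one with the highest pituitary sum, had Trim25 at 6.07 against 3.76 to 4.23 and Cd63 at 162 against 110.3 to 125. In all, 81 groups were examined this way, 6 held such a library, and chance alone would mark about 1 in 20 groups. All 81 are from the GFP set. The miR-181 groups, of 3 each, were too small for this rule and were not examined.

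Chchd10 and Slc2a3 were lower on the injected side in each of 3 miR-181 mice and higher in each of 4 GFP mice (for Chchd10 in 3 of 4 after quantile normalization), with a mean difference between vectors of -0.87 for Chchd10 and -0.50 for Slc2a3 on the log2 scale. For Slc2a3 the lowest GFP change was 0.00198 after median centring and 0.000685 after quantile normalization. Of the 14824 genes tested in both sets, 25.1% were lower in each miR-181 mouse and 11.2% were higher in each GFP mouse. The share with both was not counted. The difference between vectors was not tested, since the genes were chosen on it.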

How the results depend on the processing

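With mouse as a block, 148 genes were called lower with miR-181, 111 of them among the 230 called without it. With GFP the block gave 133 higher in place of 204, but it also left out mouse 5. Without the library of mouse 5 and with no block, 108 were called higher. The pairing of the sides changed 3 of the calls named here, Pde3b (block adjusted p = 0.0516) and Pkm (0.0611) with miR-181 and Cd68 with GFP (block adjusted p = 0.0662). Without the filter on low values Hk2, Hk1, Pde3b, Trim25, Lamp2 and Pkm no longer passed with miR-181 (adjusted p between 0.0605 and 0.114), nor did Hk1, Trim25, Lamp2 and Pkm without the intensity trend (0.0693 to 0.0949), Pde3b and Pkm with quantile normalization (0.0598 and 0.0809) and Pkm with a pseudocount of 1 (0.0502). Chchd7 passed with a minimum mean of 5 (0.0496), Chchd7 and Calm3 with median centring (0.0387 and 0.0413), and Chchd7, Opa1, Calm3, Tab2, Lamp1 and Ube2n without the injected library of miR-181 mouse 1 (0.0165 to 0.0387). Fitting the vector contrast without the pairing of sides, as an interaction over all libraries, gave 36 lower and 9 higher calls. Without the filter on low values the miR-181 calls were 268 higher and 47 lower, and the GFP calls 7 lower. Without the intensity trend there were 395 higher and 54 lower with miR-181, and 2 higher and 1 lower for the contrast. Median centring, which moved the median of all genes with miR-181 to -0.06, gave 468 lower with miR-181 and 4 with GFP. A minimum mean of 5 gave 135 higher and 1 lower with GFP. Quantile normalization gave 4 lower with GFP and 0 for the contrast, and a pseudocount of 1 or no filter also gave 0 lower for the contrast. Leaving out 1 library, the miR-181 calls ran from 113 (without uninjected mouse 2) to 1210 higher (without injected mouse 1) and from 4 to 714 lower for the same libraries, and the GFP calls from 108 (uninjected mouse 5) to 251 higher (uninjected mouse 1) and from 0 to 8 lower. Leaving out 1 mouse, the contrast ran from 1 to 168 higher and from 0 to 152 lower, both highest without miR-181 mouse 1. Fewer samples are tested in these fits, and the cause of the other shifts was not tested. With 6-base matches 2 of the 5 genes held a seed match. Of 230 values of the 5 genes under the alternatives, 17 moved by more than 1 SD of the mice, 9 of them for Slc2a3 with GFP, 7 for unpaired Lamp5 with miR-181 and 1 for Chchd10 with GFP. With GFP the unpaired difference of Slc2a3, 0.01, ran from -0.01 to 0.04 and that of Pde1b, 0.02, from -0.02 to 0.06, both on either side of 0. Precision is limited by 3 and 4 mice and by the unknown depth.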
